A study of Mus musculus with 2 samples.

Results

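The genes described here are 10 nuclear genes whose products transcribe and copy mitochondrial DNA, or control the genes that do so. They are Tfam, Tfb1m, Tfb2m, Polrmt, Polg, Polg2, Twnk, Ssbp1, Nrf1 and Gabpa. These were chosen by name and not by a rule on their values, although earlier results of these data were known. All 10 were found among 55536 annotated genes, of which 22028 are protein-coding. RNA was measured in heart tissue of B6CASTF1/J mice, the first-generation hybrid of the B6 laboratory strain and the wild-derived CAST strain. Both libraries came from males at 10 days of age and the labels name no treatment, so there was 1 group and nothing to contrast with it. The labels number the males separately but give both the same donor record, so the spread between replicate 1 and replicate 2 may be partly technical. Each library started from 300 ng of total RNA, kept strand, was depleted of ribosomal RNA and carried ERCC spike-in controls.

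Mitochondria hold their own small circular genome, which encodes core subunits of the respiratory chain and the RNAs needed to translate them. Every protein that transcribes or replicates that genome is made from nuclear genes and imported. The heart depends on oxidative metabolism more than most tissues, and its mitochondria multiply and mature after birth. NRF1 and GABP are nuclear transcription factors known to act on promoters of many genes for mitochondrial proteins, genes for mitochondrial transcription factors among them.

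The total expected count, an estimate that divides ambiguous reads among transcripts, was 38851514 in replicate 1 and 37907585 in replicate 2. Levels are in TPM, an abundance scaled for length and depth, so levels of different genes can be set side by side. All 6 cardiomyocyte markers were detected, with a median of 2453 ± 29.2 TPM (SD, n = 2), and none of 5 lymphocyte markers was. Markers of several cell types differed between the libraries, most of all those of adipocytes and atria. The 7 adipocyte markers summed to 425 TPM in replicate 1 and 31.4 in replicate 2, and all 6 measured ones were over 2-fold lower in replicate 2. The 5 atrial markers summed to 1504 and 269 TPM, and all 5 were over 2-fold lower there too. Among the adipocyte markers Ucp1 had 239 and 5.02 TPM and Lep 0.12 and 0 TPM. Of 5 skeletal muscle markers 2 were detected, Ckm at 1287 ± 102 TPM and Acta1 at 86.1 ± 10.4 TPM, both of which heart muscle also expresses, while Myh4 was listed at 0 in both libraries. The 6 fibroblast markers summed to 1724 and 1086 TPM, and the 5 macrophage markers to 43.2 and 27.4 TPM. The 5 endothelial markers summed to 470 and 377 TPM and the 4 proliferation markers to 91.4 and 69.1 TPM. The 3 red cell markers went the other way, with 8000 and 8961 TPM. Mitochondrially encoded genes held 22.6% and 24.2% of the expected counts. The part of these shifts in the values below was not tested. In whole tissue, fewer cells of a type and less RNA per cell cannot be told apart.

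All 10 genes were detected, that is, at 1 TPM or more in both libraries, as were 52.4% of protein-coding genes. Their levels spanned 13.9-fold, from Polg2 at 1.70 ± 0.24 TPM to Polg at 23.6 ± 4.69 TPM. The median of the 10 was 13.5 ± 2.19 TPM, against 10.4 ± 1.08 TPM over the 11546 detected protein-coding genes. Together they took up 135 TPM in replicate 1 and 119 TPM in replicate 2, or 0.0229% and 0.0225% of the expected counts. In order of mean TPM, Polg, Tfam, Gabpa and Polrmt came first, and each overlapped its neighbour. Ssbp1 and Tfb2m followed and overlapped each other. Tfb2m also overlapped Polrmt, which it exceeded in replicate 1, at 15.8 against 15.2 TPM. Then came Nrf1, Twnk, Tfb1m and Polg2, each apart from the next in both libraries. The gap between Nrf1 and Twnk was narrow, at 7.24 and 7.20 TPM in replicate 2. Tfb1m and Polg2 lay far below the rest, at percentiles 10.5 and 5.09 of the detected protein-coding genes, while Polg lay at percentile 75.2.

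**Figure D1:**
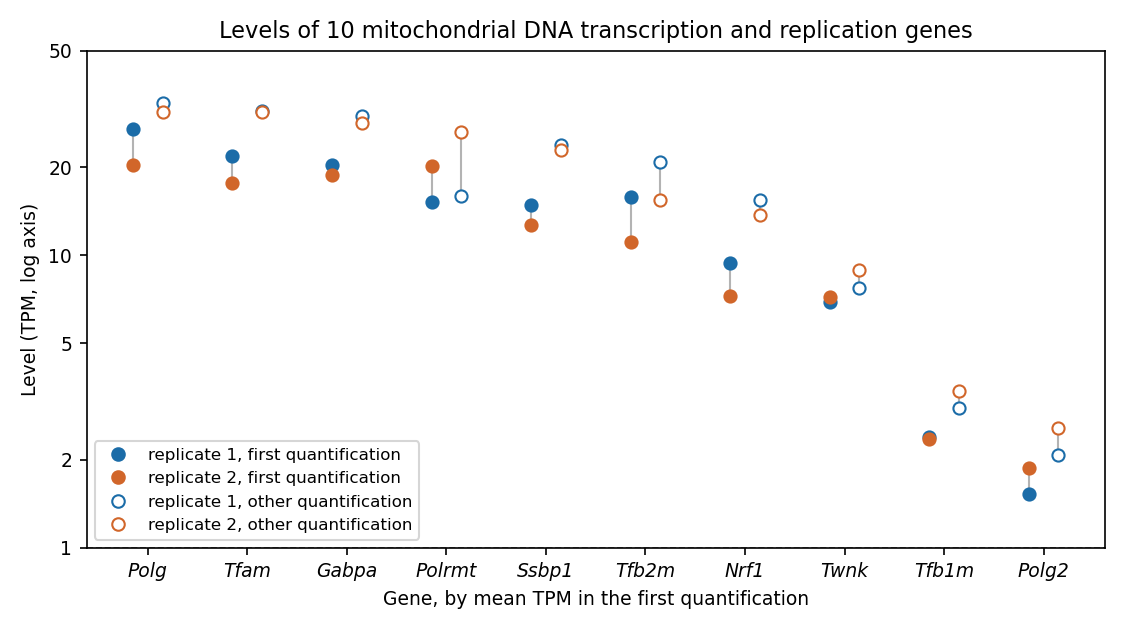
Levels of the 10 genes in TPM (log axis), by mean in the first quantification. Filled points are the first quantification and open points the other one, blue for replicate 1 and orange for replicate 2, with a grey line joining the libraries. Tfb1m and Polg2 sit under 4 TPM in every case, and the other 8 genes lie above 6 TPM.

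Among the genes for transcription factors of the organelle, Tfam and Tfb2m were well expressed and Tfb1m was low. Tfam encodes an HMG-box protein that bends promoter DNA and also packages the mitochondrial genome into nucleoids. Tfam (ENSMUSG00000003923.14, chromosome 10, 71225464 to 71238280, minus strand, mm10) had 21.9 TPM in replicate 1 and 17.6 TPM in replicate 2, from rounded expected counts of 1041 and 873. Tfb2m encodes the factor that opens the promoter together with the RNA polymerase. Tfb2m (ENSMUSG00000026492.11, chromosome 1, 179528055 to 179546267, minus strand) had 15.8 and 11.1 TPM, from 799 and 711 counts. Of the 31-base words in its transcripts, 35.2% also occur in Gm1818, an unprocessed pseudogene listed at 0.76 and 1.37 TPM, so the split of reads between the copies is uncertain. Tfb1m encodes a related protein whose known role is to methylate the RNA of the small mitochondrial ribosomal subunit. Tfb1m (ENSMUSG00000036983.7, chromosome 17, 3519256 to 3557781, minus strand) had 2.40 and 2.36 TPM, from only 86 and 99 counts. Tfb2m thus exceeded Tfb1m in both libraries, by 2.43 ± 0.34 on the log2 scale, or 5.39-fold. This ratio stayed over 2-fold in both libraries of the other quantification too, with a mean of 2.44.

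Polrmt encodes the RNA polymerase of mitochondria, related to that of bacteriophages, which also makes the primers for replication. Polrmt (ENSMUSG00000020329.12, chromosome 10, 79736123 to 79746581, minus strand) had 15.2 TPM in replicate 1 and 20.3 TPM in replicate 2, from 1061 and 1082 counts. It was below Tfam in replicate 1 and above it in replicate 2, so their ratio of 0.16 ± 0.51 on the log2 scale was smaller than its spread. Against Tfb2m its log2 ratio was -0.06 in replicate 1 and 0.86 in replicate 2. Its counts before scaling hardly differed between the libraries, and after scaling for depth they were 12.5% higher in replicate 2. The transcripts the counts were assigned to differed too, as described below.

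The replication genes spanned the whole range of the 10 by gene TPM. Polg encodes the catalytic subunit of the only DNA polymerase that replicates mitochondrial DNA in animals, and Polg2 the accessory subunit that makes it processive. Polg (ENSMUSG00000039176.17, chromosome 7, 79446231 to 79466362, minus strand) had 26.9 and 20.3 TPM, from 1788 and 1643 counts. Polg2 (ENSMUSG00000020718.12, chromosome 11, 106768253 to 106779537, minus strand) had 1.53 and 1.87 TPM, from 73 and 88 counts. By gene TPM, Polg was 13.1-fold higher than Polg2, a log2 ratio of 3.71 ± 0.48. This ratio depends on which transcripts are counted, as given below. Twnk encodes Twinkle, the helicase that unwinds DNA ahead of the polymerase. Twnk (ENSMUSG00000025209.5, chromosome 19, 45005663 to 45012762, plus strand) was at 6.94 and 7.20 TPM, from 698 and 771 counts. Ssbp1 encodes the protein that coats single-stranded mitochondrial DNA. Ssbp1 (ENSMUSG00000029911.14, chromosome 6, 40471352 to 40484700, plus strand) had 14.9 and 12.7 TPM, from 454 and 416 counts. It stood between the polymerase gene and the helicase gene, at a log2 ratio of -0.76 ± 0.13 to Polg and 0.95 ± 0.20 to Twnk by gene TPM.

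Both nuclear regulators were present. Nrf1 encodes nuclear respiratory factor 1, and Gabpa the DNA-binding subunit of GABP, a factor of the ETS family. Nrf1 (ENSMUSG00000058440.14, chromosome 6, 30047988 to 30153458, plus strand) had 9.43 TPM in replicate 1 and 7.24 TPM in replicate 2, from 603 and 529 counts. Gabpa (ENSMUSG00000008976.16, chromosome 16, 84834925 to 84863779, plus strand) had 20.4 and 18.8 TPM, from 2306 and 2318 counts, the most of the 10 genes. The log2 ratio of Nrf1 over Gabpa was -1.24 ± 0.19. Gabpa exceeded Gabpb1, which encodes its main partner subunit, by 1.31 ± 0.13, or 2.48-fold. Of 10 ratios computed between fixed pairs of genes, 5 were over 2-fold in both libraries, and no test of them was run. The other quantification also gave 5, but not the same set. There Nrf1 over Gabpa was -0.96 and -1.05, under 2-fold in replicate 1, and Ssbp1 over Twnk was over 2-fold at 1.61 and 1.36.

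Matches to the core motifs of these 2 regulators were looked for in the promoters of the 10 genes, taken from RefSeq on GRCm38.p6, the build also called mm10. Each promoter runs from 250 bases before to 50 bases after an annotated start, and all 10 genes matched, 2 of them (Nrf1 and Twnk) with a second start. The NRF1 core GCGCATGC, on either strand, occurred for 2 of 10 genes, Tfb2m and Polrmt. It occurs in 2.71% of all 32851 promoters of this length and for 6.23% of the 9036 detected protein-coding genes with a promoter in the table. The ETS motif CCGGAAGT, on either strand, occurred for 3 of 10 genes, Polg, Tfam and Twnk, against 3.89% of promoters and 9.53% of those genes. No match of one motif overlaps a match of the other. The stretches around the matches are printed because the genes for both factors are among the 10. Each is on the strand of its gene, with the motif in capitals.
Tfb2m, chr1:179546245-179546274, NRF1 core: ctaggtcgttcGCATGCGCcattcgtaatg
Polrmt, chr10:79746687-79746734, NRF1 core: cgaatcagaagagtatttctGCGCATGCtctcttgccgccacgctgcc
Tfam, chr10:71238073-71238102, ETS motif: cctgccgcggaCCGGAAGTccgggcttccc
Polg, chr7:79466293-79466322, ETS motif: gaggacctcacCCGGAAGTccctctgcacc
Twnk, chr19:45006436-45006465, ETS motif: actaaccggtgACTTCCGGttccggggttg

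In Tfb2m and Twnk the match is in reverse orientation. The first base of the match lies 133 bases before the start in Polrmt, 47 in Tfam, 38 in Polg and 111 before the second start of Twnk. In Tfb2m it lies 13 bases after the start. The stretches of Tfb2m, Tfam and Polg reach into an annotated exon of the same gene. The stretch of Twnk reaches into an exon of Mrpl43, a gene on the opposite strand. A match is a description of the letters and not a binding site. The genes with matches, Polg, Tfam, Polrmt, Tfb2m and Twnk, ranged from 7.07 to 23.6 TPM. Those with neither motif in the window, Gabpa, Ssbp1, Nrf1, Tfb1m and Polg2, ranged from 1.70 to 19.6 TPM, and these ranges overlap.

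The counts of the 10 genes differed little between the libraries, and all 10 had a mean count of at least 50. Ratios were taken as replicate 2 over replicate 1 after scaling by TMM, with an exact 95% Clopper-Pearson interval that covers counting error only. None of the 10 was over 2-fold with an interval that left out 1, against 1.79% of 13213 genes with a mean count of at least 50. For 3 of the 10 the interval left out 1, against 42.9% of those genes, and all 3 were higher in replicate 2. Twnk had a log2 ratio of 0.28 (0.14 to 0.43), Polrmt 0.17 (0.05 to 0.29) and Gabpa 0.15 (0.07 to 0.23). Tfam was at -0.11 (-0.24 to 0.02). The low counts of Tfb1m and Polg2 gave wide intervals, at 0.34 (-0.09 to 0.78) and 0.41 (-0.05 to 0.88), so differences of these sizes were not detectable at this depth. Tfb2m, Polg, Ssbp1 and Nrf1 lay between -0.05 and 0.02. The median of the 10 was 0.08, against 0.01 over all 13213 genes, and the median size of the difference was 0.13 against 0.14.

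The call for Twnk held under all 6 scalings and counts tried. Tfam was lower in replicate 2 under each of them, and its interval left out 1 under 4. That of Gabpa left out 1 under 4 and that of Polrmt under 3. Polg and Ssbp1 were higher in replicate 2 under TMM alone, so their direction depends on the scaling. Scaled to the total expected count, the median of all genes shifted to -0.10. On that scale the calls were Twnk, higher, and Tfam, lower, and the log2 ratio of Gabpa was 0.04 (-0.04 to 0.13).

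**Figure D2:**
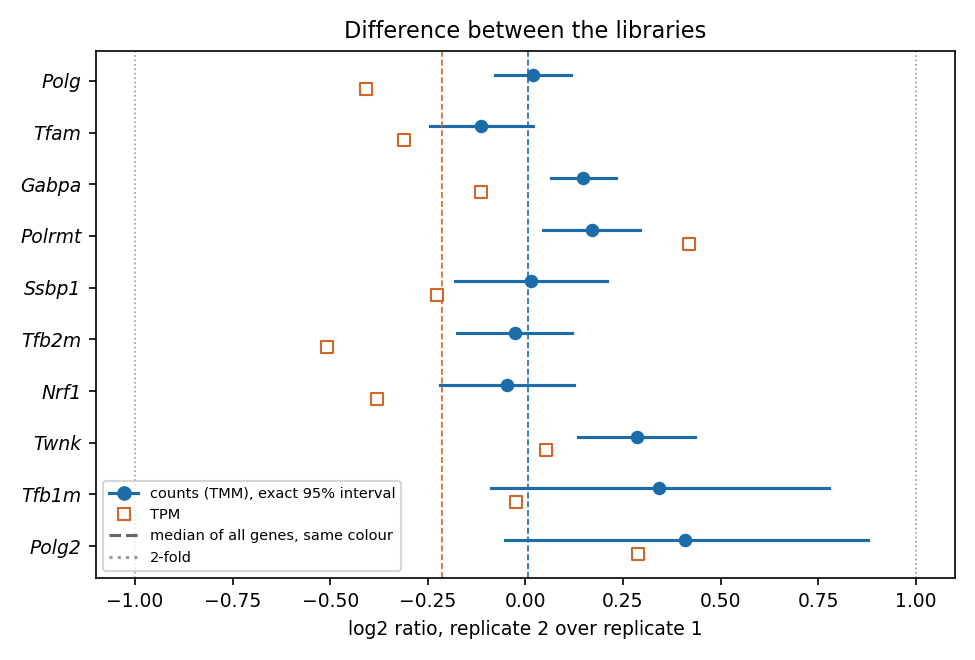
Log2 ratio of replicate 2 over replicate 1 for each gene, from scaled counts with exact 95% intervals (blue) and from TPM (orange squares). Dashed lines are the medians of all genes with a mean count of at least 50 in the same colour, and dotted lines mark 2-fold. TPM and counts part most for Tfb2m, Polg and Tfb1m, whose TPM ratios lie to the left, and only Polrmt's lies to the right of its count ratio.

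Ratios of TPM differed from ratios of counts for several of the genes. The median log2 TPM ratio over all measured genes was -0.21, so the TPM scale itself sat lower in replicate 2, and 7 of the 10 genes had lower TPM there. Nuclear protein-coding genes held 43.0% of TPM in replicate 1 and 37.5% in replicate 2. Beyond that shift, TPM divides counts by an effective length averaged over the transcripts assigned to a gene. That length differed between the libraries by over 0.2 on the log2 scale for 3 of 10 genes, Polrmt, Tfb2m and Polg, against 9.81% of the measured genes. The median size of this difference was 0.11 over the 10 genes and 0.03 over all of them.

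The difference was largest for Polrmt among the 10. Its effective length was 2317 bases in replicate 1 and 1668 in replicate 2, a log2 difference of -0.47, and its TPM was 33.7% higher in replicate 2. The complete coding transcript Polrmt-201 (3755 bases) had 6.16 and 5.41 TPM, with 681 and 634 counts. Polrmt-205, a noncoding transcript of 374 bases, had 3.19 and 6.56 TPM on 26.5 and 57.8 counts. Polrmt-211, a retained-intron transcript of 602 bases, had 0 and 1.63 TPM on 0 and 26.2 counts. The higher TPM of the gene in replicate 2 thus lay in short noncoding transcripts with few counts, while the TPM of Polrmt-201 was not higher there. The TPM scale itself sat lower in replicate 2, so the TPM of Polrmt-201 alone does not show a lower level of that transcript. In the other quantification Polrmt was at 15.9 and 26.4 TPM. There Polrmt-205 was listed at 0 in both libraries, and another short transcript, Polrmt-204 (395 bases, retained intron), was at 0 and 6.76 TPM.

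For Tfb2m the effective length was longer in replicate 2, at 1672 and 1996 bases. Its complete coding transcript Tfb2m-201 had 10.0 and 8.90 TPM. The noncoding Tfb2m-205, of 458 bases, had 4.21 and 1.26 TPM on 45.7 and 14.5 counts. Polg had effective lengths of 2197 and 2528 bases, and its transcripts are described next.

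Polg, the highest of the 10 by gene TPM, was assigned mostly to transcripts without a complete coding sequence. Of its 18 annotated transcripts 1 has a complete coding sequence, Polg-201 (7837 bases, 1217 codons), and it held 5.01% of the gene's TPM in replicate 1 and 7.78% in replicate 2. In the other quantification the shares were 4.84% and 5.93%. By counts, which are not divided by length, Polg-201 held 17.7% and 23.9%. Retained-intron transcripts held 45.0% and 32.4% of the counts, the largest of them Polg-203 with 627 and 362. Transcripts annotated for nonsense-mediated decay, a pathway that destroys RNAs with premature stop codons, held 29.2% and 37.1%, nearly all from Polg-213 with 499 and 562. The short incomplete Polg-217 (408 bases) held 17.6% of TPM in replicate 1 on 2.48% of the counts. As TPM of complete coding transcripts, Polg stood at 1.35 and 1.58, below Tfb1m and next to Polg2. The annotated transcripts of Polg share exons, so the split of reads among them is an estimate. The level of complete coding Polg RNA is therefore uncertain from these tables.

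**Figure D3:**
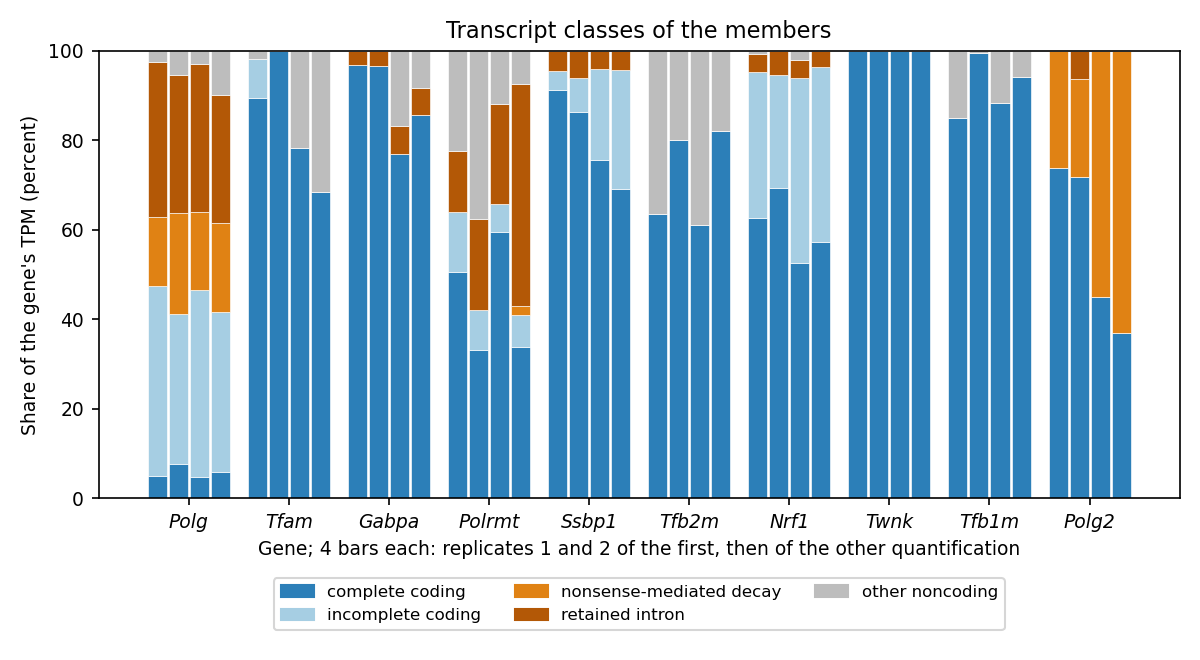
Share of each gene's TPM by transcript class of the annotation, in percent. The 4 bars of a gene are replicates 1 and 2 of the first quantification, then replicates 1 and 2 of the other. Dark blue marks transcripts with a complete coding sequence, which hold all of Twnk, under 8% of Polg in each bar and 33.2% to 59.5% of Polrmt.

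For the genes other than Polg and Polrmt, complete coding transcripts made up most of the TPM in the first quantification. Over the 10, the median share of complete coding transcripts was 80.8%, against 80.5% over 10573 detected protein-coding genes with several transcripts. It was under 50% for 2 of the 10, Polg at 6.40% and Polrmt at 41.9% on average, against 15.8% of those genes. Twnk had only coding transcripts, and Twnk-201, of 685 codons, held 95.2% and 96.3%. Gabpa was split between Gabpa-201 with 60.2% and 64.1% and Gabpa-202 with 36.7% and 32.4%, both of 454 codons. Nrf1 had 13 complete coding transcripts, of which Nrf1-210 (503 codons) led with 44.2% and 43.3%. Ssbp1-203 (148 codons) held 78.5% and 72.5%, and Tfb1m-201 held 84.9% and 99.6%. Polg2-201 held 73.9% and 71.8% in the first quantification but 45.1% and 36.9% in the other, where transcripts for nonsense-mediated decay held the rest.

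The same transcript was highest in both libraries for 8 of 10 genes, against 89.2% of those 10573. The exceptions were Polrmt, with Polrmt-201 and then Polrmt-205, and Polg, with Polg-217 and then Polg-213. Both quantifications and both libraries gave the same highest transcript for 6 of 10, against 67.3%. Tfam and Nrf1 differed between quantifications. For Tfam the first gave Tfam-202 (779 bases, 215 codons) with 58.5% and 71.7% of TPM. The other gave Tfam-203 (899 bases, 199 codons) with 14.2 and 14.9 TPM, where the first had 0.80 and 0.50 TPM. By expected counts neither led. The longest coding form, Tfam-201 (4167 bases, 243 codons), held 731 counts in replicate 1 and 585 in replicate 2, or 70.2% and 67.0%. For Nrf1 the other quantification gave Nrf1-218, an incomplete transcript of 486 bases, with 31.6% and 27.8% of TPM. Which Tfam protein form prevails is therefore uncertain from these tables.

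The order of the 10 genes depended on which measure of level was used. Divided by the summed length of all annotated exons, as counts per kb scaled for depth, Gabpa led with 10.7 ± 0.22, followed by Tfb2m with 7.05 ± 0.46. Polg was the sixth with 4.18 ± 0.18. By TPM of complete coding transcripts, Gabpa at 19.0 ± 1.12 and Tfam at 18.6 ± 1.36 led and overlapped. Ssbp1 followed at 12.3 ± 1.81, then Tfb2m at 9.47 ± 0.81, Polrmt at 7.20 ± 0.66, Twnk at 7.08 ± 0.19 and Nrf1 at 5.46 ± 0.63. Tfb1m at 2.19 ± 0.23, Polg at 1.47 ± 0.16 and Polg2 at 1.24 ± 0.16 closed the order. Polg2 was the last by all 4 measures and Tfb1m the ninth by 3 of them and the eighth by 1. These other 2 measures were added after the values had been seen.

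**Figure D4:**
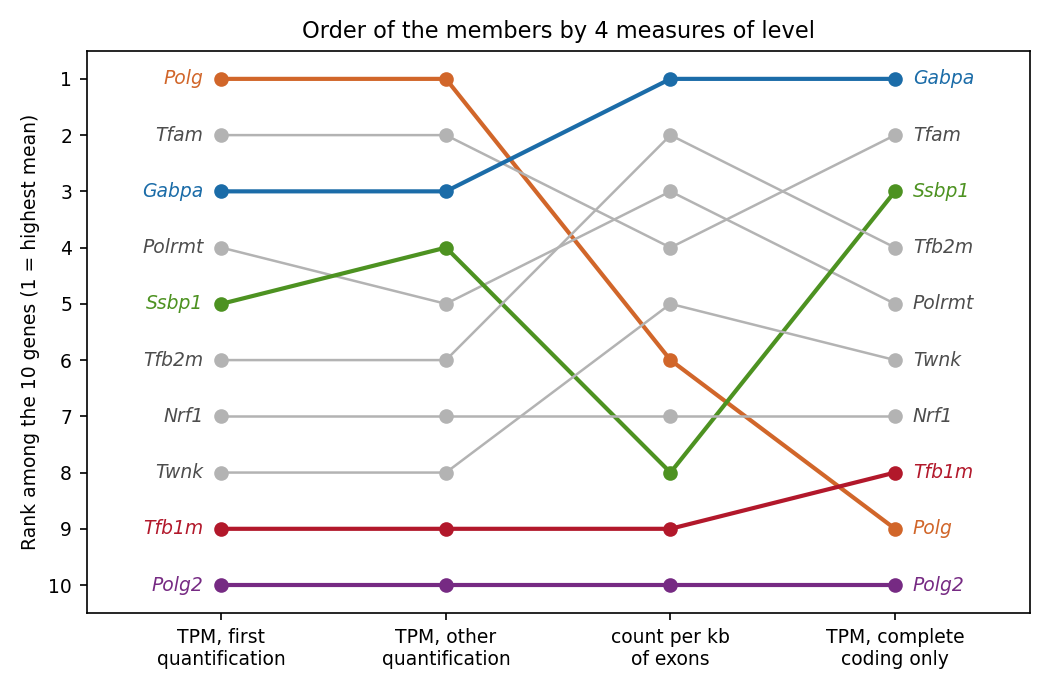
Rank of the 10 genes by mean level (1 is the highest) under 4 measures: TPM in each quantification, counts per kb of annotated exons, and TPM of complete coding transcripts. Polg goes from rank 1 by TPM to rank 6 and rank 9, and Polg2 keeps rank 10 in all 4.

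The ratios between genes changed with them. On complete coding transcripts, Polg exceeded Polg2 by 0.22 ± 0.02 on the log2 scale, or 1.17-fold, in place of 13.1-fold by gene TPM. Ratios of Polg on complete coding transcripts carry the uncertainty in the split of its reads given above. Polg over Twnk was 1.71 ± 0.32 by gene TPM and -2.20 ± 0.11 by complete coding transcripts, and -0.19 per kb of exons. Ssbp1 over Polg was 2.98 ± 0.36 and Tfam over Polrmt 1.36 ± 0.03 by complete coding transcripts. Polrmt over Tfb2m was -0.39 ± 0.01. The direction differed from that by gene TPM for these pairs of Polg with Twnk, Ssbp1 with Polg and Polrmt with Tfb2m, 3 of the 10. Per kb of exons it differed for 5 of 10: Polg with Twnk, Ssbp1 with Twnk, and all 3 pairs among Tfam, Polrmt and Tfb2m. By gene TPM, however, Tfam over Polrmt and Polrmt over Tfb2m each had opposite signs in the libraries. The direction of these pairs was thus not settled by gene TPM. Ssbp1 over Twnk was -1.74 per kb of exons. That measure divides by all annotated exons, 8360 bases for Ssbp1, while Ssbp1-203 of 933 bases held 64.8% and 59.2% of its counts. Tfb2m over Tfb1m kept its direction throughout, at 2.06 ± 0.26 by complete coding transcripts and 3.21 per kb of exons. So did Gabpa over Gabpb1, at 1.38 ± 0.08 and 2.50. The SD between the libraries was smaller on complete coding transcripts for 8 of 10 pairs, with a median of 0.08 against 0.26 by gene TPM.

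The other quantification, made directly from the reads, listed all 10 genes higher than the first, by a median of 0.44 on the log2 scale. So were 95.3% of 11495 protein-coding genes, with a median of 0.39. The difference ran from 0.23 for Twnk to 0.80 for Nrf1. The order of the genes was the same except that Ssbp1, at 23.3 ± 0.63 TPM, stood above Polrmt, at 21.2 ± 7.41 TPM, and these overlapped. Polg led there with 32.0 ± 1.46 TPM, followed by Tfam with 30.9 ± 0.21 TPM and Gabpa with 29.2 ± 1.11 TPM.

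Exons of 5 of the 10 genes overlap those of a protein-coding gene on the opposite strand, against 17.4% of the 11546 detected protein-coding genes. Twnk shares 507 bases at its 5′ side with Mrpl43, a gene for a mitochondrial ribosomal protein, at 21.6 and 18.0 TPM. Gabpa shares 397 bases at its 5′ side with Atp5j, a gene for an ATP synthase subunit, at 636 and 591 TPM. At their 3′ sides, Polg overlaps Fanci over 921 bases, Tfb1m overlaps Tiam2 over 142 and Polg2 overlaps Milr1 over 132. Whether strand was used in the counting is not given in the sources used here, so reads in the shared stretches are uncertain.

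The rest of the pathway was also present. Lists of other nuclear genes held 53 genes, of which 51 were detected. Their median was 9.12 ± 1.12 TPM, against 13.5 ± 2.19 TPM for the 10 genes, and single genes ran from 0.14 to 90.6 TPM. None of the 50 with a mean count of at least 50 was over 2-fold between the libraries. For 16 of the 50 the interval left out 1, against 42.9% of all 13213 measured genes, and of these 7 were higher and 9 lower in replicate 2.

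Of 7 genes for transcription elongation and termination, 6 were detected, with a median of 5.58 ± 0.41 TPM. Mrpl12, a ribosomal protein also reported to bind the polymerase, led with 89.9 ± 10.7 TPM, followed by Mterf3 with 18.5 ± 1.06 and the elongation factor gene Tefm with 8.87 ± 1.48 TPM. The gene not detected was Mterf1b, at 0.80 and 1.03 TPM, named after its values were seen. It is a near copy of Mterf1a, so the split of their reads is uncertain. All 12 genes for other replication and maintenance factors were detected, with a median of 3.66 ± 0.41 TPM. The highest were Lonp1, for the protease known to degrade TFAM, with 37.1 ± 2.98 TPM, Atad3a with 27.4 ± 4.38 and the nuclease gene Endog with 21.7 ± 4.91 TPM. Of 9 genes for nucleotide supply 8 were detected, with a median of 8.06 ± 0.70 TPM, led by Mpv17 with 21.1 ± 0.89, the pyrimidine nucleotide carrier gene Slc25a36 with 17.8 ± 2.33 and the deoxyguanosine kinase gene Dguok with 9.98 ± 0.04 TPM. Tymp, which encodes thymidine phosphorylase, was at 0.13 and 0.15 TPM, from 8 and 9 counts.

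All 17 genes for mitochondrial RNA processing and stability were detected, with a median of 12.3 ± 1.26 TPM. Fastk led with 79.6 ± 9.55 TPM, followed by Grsf1, for a protein of mitochondrial RNA granules, with 75.5 ± 9.91 and Hsd17b10, for a subunit of mitochondrial RNase P, with 63.7 ± 4.09 TPM. All 8 partners and coactivators of NRF1 and GABP were detected, with the highest median of these lists, 19.0 ± 2.73 TPM. Ppargc1a, the coactivator known as a driver of mitochondrial biogenesis, had 90.6 ± 1.91 TPM, above each of the 10 genes in both libraries. Esrra, for its nuclear receptor partner ERRα, had 47.0 ± 7.19 TPM and the related coactivator gene Ppargc1b 26.9 ± 5.13 TPM.

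**Figure D5:**
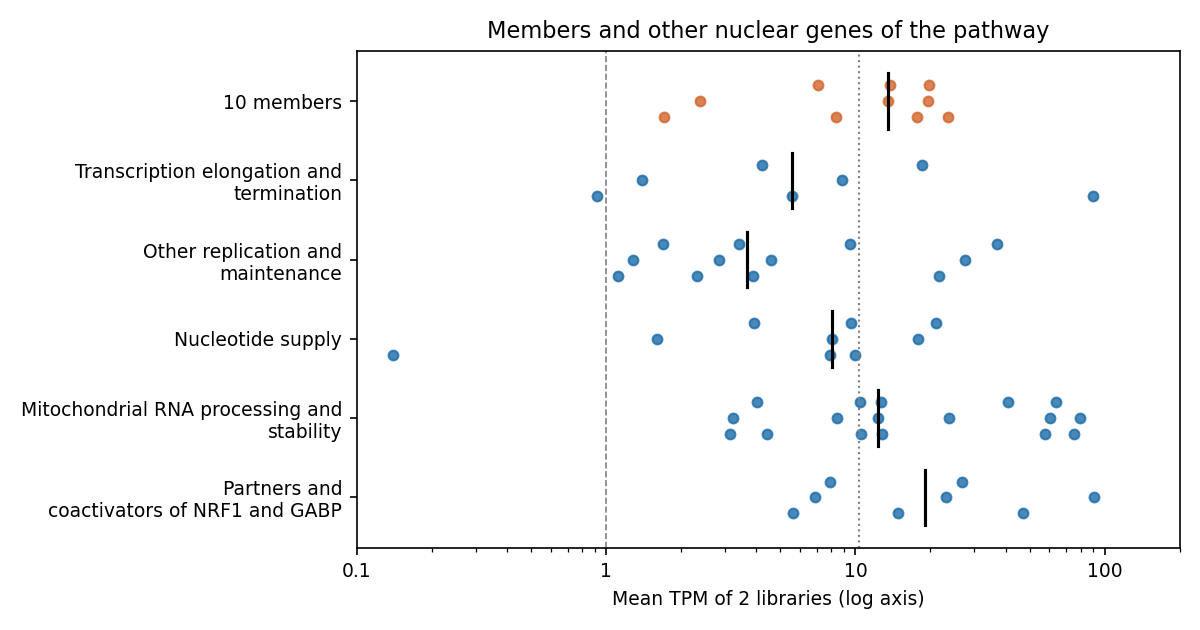
Mean TPM of both libraries (log axis) for the 10 genes (orange) and for 5 lists of other nuclear genes of the pathway (blue), 1 point per gene. Black bars are list medians, the dashed line is 1 TPM and the dotted line is the median of detected protein-coding genes, 10.4 TPM. Replication and maintenance genes have the lowest median, 3.66 TPM, and partners and coactivators the highest, 19.0 TPM.

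The products of this machinery were far more abundant than the RNAs that encode it. The 12 protein genes on the heavy strand of the mitochondrial genome, led by mt-Co1, mt-Co3 and mt-Cytb, had a median of 6555 ± 179 TPM. Among them the 2 quantifications differed most for mt-Co2, mt-Atp8 and mt-Nd4l. Their means were 369, 3134 and 6508 TPM in the first and 3082, 0 and 72.5 TPM in the other. The only protein gene of the light strand, mt-Nd6, had 1351 ± 42.5 TPM. The rRNA genes mt-Rnr1 and mt-Rnr2 had a median of 74332 ± 485 TPM, although ribosomal RNA had been reduced. Between the libraries, scaled counts of the heavy-strand genes had a median log2 ratio of 0.16, and 10 of 12 were higher in replicate 2 and 1 lower with an interval that left out 1, against 42.9% of measured genes in either direction. The interval covers counting error only and is narrow at these depths, from 6723 counts for mt-Co2 to 1186924 for mt-Co1 in replicate 1. All 6 cardiomyocyte markers also had an interval that left out 1, with 5 higher and 1 lower in replicate 2. Over the same libraries Tfam was at -0.11, Polrmt at 0.17 and Tfb2m at -0.03, and no relation between them was tested.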

How the data were processed

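Total RNA-seq of 2 heart libraries of 1 group was analysed. Per the file headers and deposited notes, the authors used mm10 with GENCODE M21. Program names and versions are not given in the sources used here, nor whether counting used strand. The layouts are those of RSEM (the first quantification, derived from alignments) and kallisto (the other, from reads). The authors deposited expected counts, which need not be whole, per gene and transcript, and estimated counts in the other quantification. Their deposited TPM is scaled to a constant sum over all rows, spike-ins included, and the deposited FPKM was an alternative. Reads of CAST alleles were assigned to a B6-based reference, which could lose some of them in both libraries alike.

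The 26248 rows that name no gene (3.89 and 3 counts) were left out. Symbols and coordinates came from GENCODE M21. A floor of 3 counts equals 0.0772 and 0.0791 CPM. Counts were rounded and scaled with edgeR 4.0.16 TMM factors, and 0.5 was added before the log2 ratio. Intervals are exact 95% Clopper-Pearson and cover counting error only, since reads carry no molecular identifiers. Ratios between genes used log2 TPM with a pseudocount of 0.1 and so understate the ratios of low genes. Complete coding transcripts are protein-coding ones without a GENCODE tag for an incomplete end. The ratio procedure was tested on simulated data with 200 changed genes. Analyses used R 4.3.3, Python 3.11.15 and, as an alternative, DESeq2 1.42.0 size factors. With 1 group, no test and no p-value was computed.

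The 10 genes and the lists were chosen with earlier results of these data known. The rule for named genes was all 10 genes and, of each list, the 3 highest by mean TPM, every gene under 1 TPM in both libraries and every gene over 2-fold between them. No protein sequences were used here.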

Additional observations from a re-analysis of the deposited data

How the results depend on the processing

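Of the summary values recomputed under other settings, 36 stayed within 1 SD, or within 1.5 times for counts, and 7 moved. The mean of 2 libraries lies within 1 SD of each by arithmetic, so levels from 1 library alone could not move. Among the values for single genes, pairs and backgrounds, 146 stayed, 68 moved and 2 reversed. All 10 genes stayed detected in the other quantification, and 6 passed a minimum of 10 TPM. Detection was defined over both libraries, so this count could not fall in either library alone. The median level of the 10 genes, 13.5 TPM, was 18.8 in the other quantification, 10.9 as FPKM, 33.4 as TPM over nuclear protein-coding genes, 4.49 as depth-scaled counts per kb of exons, and 7.14 on complete coding transcripts. These are other scales, and the last 2 were added after seeing the data. The median was 15.0 TPM in replicate 1 alone and 11.9 TPM in replicate 2 alone. The median share of the highest transcript, 68.5%, was 49.8% in the other quantification. Polg over Twnk turned from 1.71 to -0.19 per kb of exons and to -2.20 on complete coding transcripts. Depth limits Tfb1m and Polg2 most, with at most 99 counts in a library. Without a minimum count, 3.54% of 26007 genes were over 2-fold between the libraries and 25.1% had an interval that left out 1. No paired analysis was possible because there is only 1 group.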
